A study of Picea abies with 19 samples.

Results

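Root ends of 5-month Norway spruce (Picea abies) cuttings were compared between slow and fast growth classes on 4 one-colour oligonucleotide arrays, out of 19 arrays in the series. The slow class held 2 arrays of genotype 52, titled Slow_52_2_4 (slow replicate 1) and Slow_52_2_6b (slow replicate 2). The fast class held 1 array of genotype 20, titled Fast_20_4_5, and 1 array of genotype 35, titled Fast_35_6_4. The members were taken by age and title, with no measured value used. All 4 were adventitious root ends washed free of nursery peat, frozen, and hybridised as amplified RNA carrying a single Alexa dye. No treatment is named in the labels, and they do not say in which respect the genotypes were fast or slow. The slow class at this age is 1 genotype, so growth class and genotype 52 cannot be told apart. The labels call the samples of a genotype biological samples of several root ends. They do not say whether the 2 slow samples came from separate cuttings, so p-values measure the spread between these arrays.

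Norway spruce is propagated for forestry by rooting shoot cuttings, and all cuttings of a genotype are clonal copies of one tree. A cutting has no seedling root system: its roots are adventitious, formed anew from stem tissue after wounding. The fine root ends carry the growing tip and the young absorbing zone, take up water and nutrients, and in forest and nursery soils are colonised by mycorrhizal fungi. Genotypes are known to differ in rooting and in later growth. Because each sample was a bulk of root ends, fewer cells of a type and less RNA per cell cannot be told apart in any difference below. The probes bear numbers and no gene names in the files, so transcripts are given by probe ID, no root marker could be looked up to check the labelled tissue, and no probe sequence is printed.

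Several features of the labels and arrays bear on what follows. The 2 slow arrays have the same middle title number, 2, as the 18-month arrays of genotype 52, whereas genotypes 20 and 35 have other middle numbers at 5 months than at 18. The title Slow_52_2_6b also differs from the 18-month title Slow_52_2_6a in its last letter alone. The sources used here do not say what the number or the letter means, or whether these samples share a plant. The authors' deposited table places values close to the scan of slow replicate 2 under the title Fast_20_2_5, an 18-month sample of genotype 20 (Pearson correlation 0.85 across probes, against -0.24 with its own column). The other 3 scans matched no column above 0.40, and their own columns reached at most 0.01. Probes are not independent replicates, and these correlations describe the files only. No array was moved to another label. Every direction below is that of the scans under their own titles, and in the authors' table many of them turn.

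The arrays also differed in how much was seen. A probe was called above background when its median spot intensity exceeded the local background by more than 2 background standard deviations. Between 8848 (slow replicate 2) and 11228 (slow replicate 1) of the 32144 spruce probes met this level. Genotype 20 had 9803 and genotype 35 had 8881. The number of arrays limits the precision. Scans fell into periods: genotype 20 and slow replicate 2 were scanned in period 1, genotype 35 and slow replicate 1 in period 2, so each period held 1 array of each class.

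In all, 6439 probes were above background on all 4 arrays, 18570 on none and 3225 on a single array. Slow replicate 1 accounted for 1793 of the single-array probes and genotype 20 for 1017, against 231 for slow replicate 2 and 184 for genotype 35. Both slow arrays and neither fast array saw 406 probes, and both fast arrays and neither slow array saw 233. Pairs of arrays from different classes gave sets from 51 to 496 probes: 496 were seen only by genotype 35 and slow replicate 1, 437 only by genotype 20 and slow replicate 1, 328 only by genotype 20 and slow replicate 2, and 51 only by genotype 35 and slow replicate 2. The 2 arrays that saw the most probes also saw the most alone, and the part of this in the class sets was not tested.

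**Figure D1:**
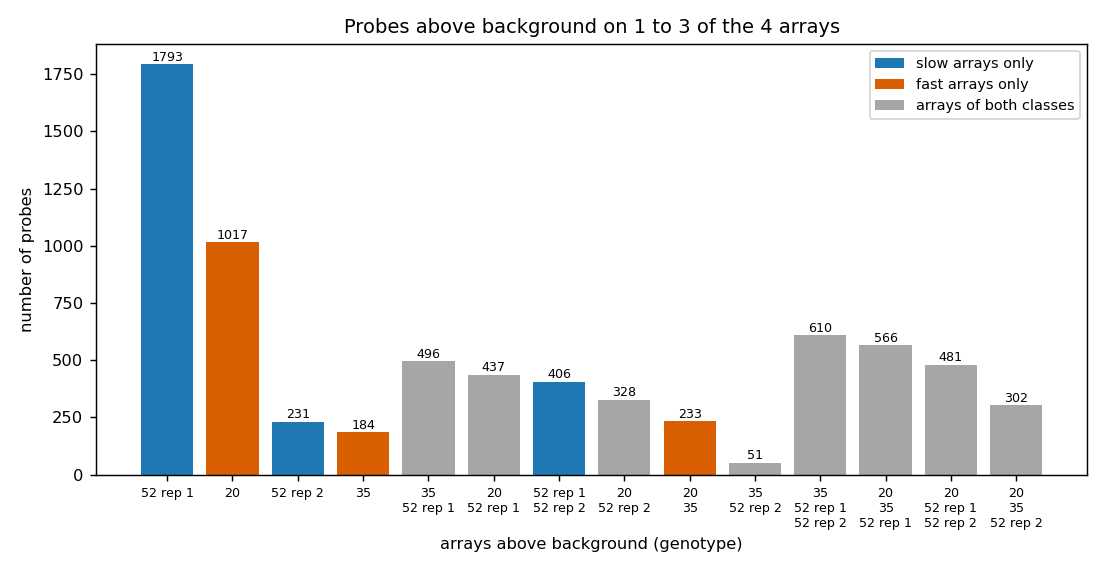
Number of probes (vertical axis) above background on 1 to 3 of the 4 arrays, with a bar for each combination of arrays (horizontal axis; 20 and 35 are fast, 52 is slow). The tallest bars are probes seen only by slow replicate 1 (1793) and only by genotype 20 (1017); both slow arrays alone saw 406 and both fast arrays alone 233.

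Over the 10349 probes above background on at least 2 of the 4 arrays, arrays of one class were, by rank correlation, more alike than 1 of the 4 pairs of arrays from different classes and not more than the other 3. The Spearman correlation across probes was 0.71 between the 2 slow arrays and 0.72 between the 2 fast genotypes. Between classes it was 0.77 for genotype 35 and slow replicate 2, 0.74 for genotype 35 and slow replicate 1, 0.73 for genotype 20 and slow replicate 2, and 0.53 for genotype 20 and slow replicate 1. The median absolute difference was 0.67 log2 units between the slow arrays and 0.68 between the fast ones, so 2 samples of genotype 52 differed about as much as genotypes 20 and 35 did. It was lowest, 0.55, for genotype 35 and slow replicate 2, and highest, 0.98, for genotype 20 and slow replicate 1. These are descriptions across probes that share arrays, without a test.

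The comparison of classes asks which transcripts differ between root ends of slow and fast genotypes a few months after rooting. The adjusted threshold of 0.05 was passed by 0 of 10349 probes in limma (0 percent), the smallest adjusted value being 0.179. Without adjustment, 633 probes had a p below 0.05, where 5 percent of the probes tested is 517.45. Of these, 254 (2.45 percent of the probes tested) were higher in the slow and 379 (3.66 percent) higher in the fast class. The 95 percent interval extended a median of 1.43 log2 units each way, and no interval of a tested probe lay wholly within 1 log2 unit of zero (0 probes). A 2-fold difference thus fell inside the error of a typical probe, and the absence of calls does not show that the classes were alike. With scan period as a term 0 probes passed and 1392 had an unadjusted p below 0.05. Without slow replicate 1, 14 probes passed and 395 had such a p, and without slow replicate 2 the counts were 23 and 1014. Without the genotype 20 array they were 0 and 288. The groups did not overlap on 2025 probes with higher slow readings (19.6 percent) and on 1945 with higher fast readings (18.8 percent). The lower slow array exceeded the higher fast array by more than 2 log2 units on 6 probes, and the reverse held on 14 probes.

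The largest difference was that of Spruce_20571. It read 13.24 and 12.33 on slow replicates 1 and 2, and 7.77 in genotype 20 and 7.05 in genotype 35. Neither fast array was above background, so the slow mean of 12.78 ± 0.65 (SD, n = 2) was at least 19.9-fold higher. For this bound each dim array was given its own reading of the probe or, if larger, the lowest reading that any probe above background had on that array. The bound carries no sampling error. The fitted difference was 5.38 ± 0.63 log2 units (SE, adjusted p = 0.179, limma), and within scan periods 1 and 2 it was 4.56 and 6.19. The slow arrays alone carried the probe into the test, and the fitted difference and its p-values rest on fast readings not above background. With the spread taken from all 19 arrays the probe passed (adjusted p = 0.0323, limma). In the authors' table it did not pass, and the difference there was 0.90 log2 units. Under the other alternatives, those that leave out an array included, the difference was 4.29 to 6.57.

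At 18 months Spruce_20571 was far from this level in every genotype. Genotype 52 read 9.87 and 9.65 there, genotype 20 read 9.05 and 9.09, and genotype 35 read 10.25 and 9.63. The remaining fast genotypes, 15 and 18, ran from 7.90 to 9.81 (median 8.18, n = 3) and the remaining slow genotypes, 61, 70 and 76, from 7.19 to 9.96 (median 8.70, n = 6). The difference between genotype 52 and genotypes 20 and 35 was 0.25 ± 0.31 log2 units at 18 months (SE). The change in this difference between the ages was 5.12 ± 0.98 log2 units (SE) and did not pass (adjusted p = 0.999, limma). Over its alternatives that adjusted p ran from 0.495 to 0.999.

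Spruce_01380 was the strongest in the other direction. It read 12.72 in genotype 20 and 12.60 in genotype 35, and 8.42 and 7.45 on slow replicates 1 and 2, of which replicate 1 alone was above background. The difference was -4.73 ± 0.61 log2 units (SE, adjusted p = 0.193, limma), at -5.27 and -4.18 within scan periods 1 and 2. It passed with the spread of all 19 arrays (adjusted p = 0.0323, limma). In the authors' table it did not pass, and the difference there was -0.52 log2 units. Over all alternatives the difference ran from -5.47 to -0.52. At 18 months genotype 52 read 11.24 and 11.57, overlapping the 11.29 to 13.83 of genotypes 20 and 35. Among the genotypes sampled only at 18 months this probe ran from 6.79 to 12.78. Genotype 70, a slow one, read 11.78 and 12.78, and genotype 15, a fast one, was not above background at 7.16.

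Spruce_29767 kept its order at both ages. At 5 months it read 11.59 in genotype 20 and 12.90 in genotype 35, against 8.72 and 8.28 on the slow arrays, of which replicate 1 alone was above background. The difference was -3.75 ± 0.66 log2 units (SE, adjusted p = 0.763, limma). With the spread of all 19 arrays it passed (adjusted p = 0.0323, limma), and in the authors' table, where it did not pass, the difference was -1.13. The 18-month arrays did not enter the 4-array fit, but they were part of the spread of all 19 arrays and of the shared normalisation. On them genotype 52 read 8.98 and 9.24 and the 4 arrays of genotypes 20 and 35 lay between 12.13 and 12.86. That difference was -3.35 ± 0.32 log2 units (SE, adjusted p = 0.0801, limma; 0.00569 to 0.818 over the alternatives). The other slow genotypes did not share the low level as a group: genotypes 61 and 70 read 11.19 to 12.37, while genotype 76 read 8.36 and 9.46.

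**Figure D2:**
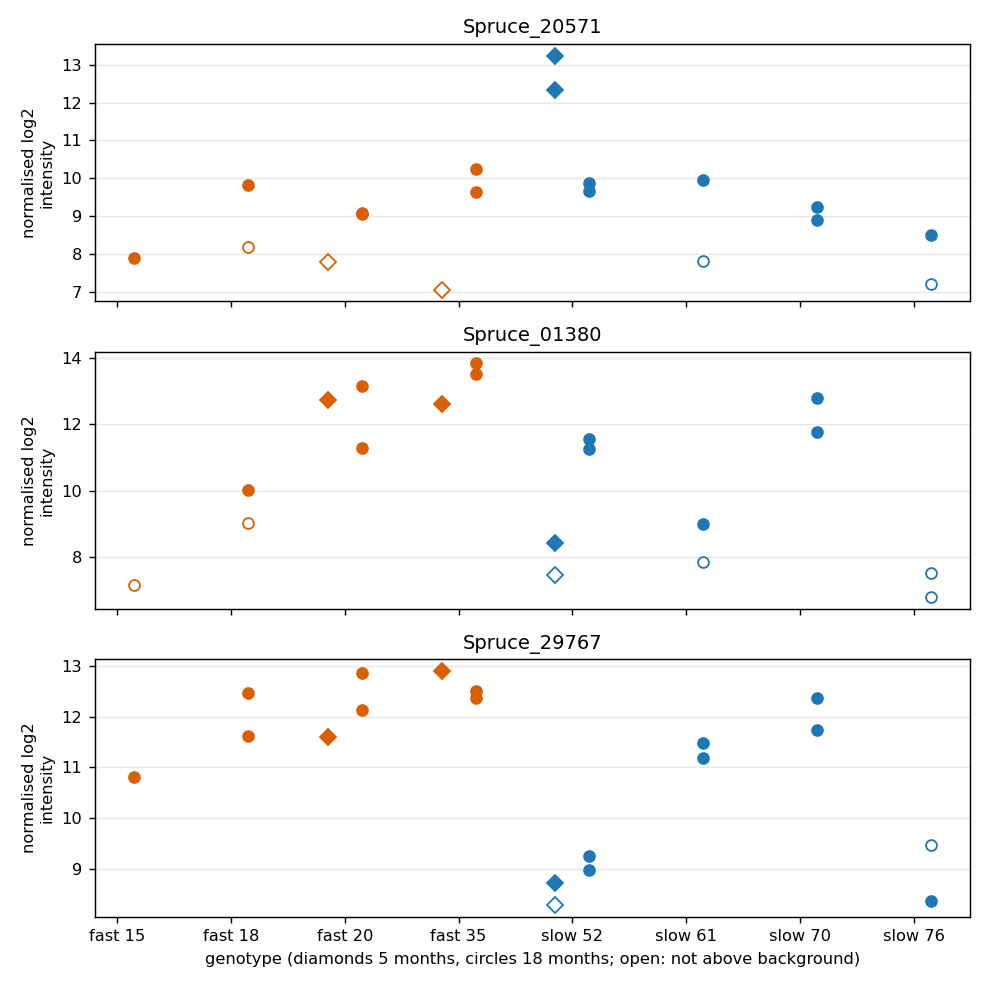
Normalised log2 intensity (vertical axis) of 3 probes on all 19 arrays, by genotype (horizontal axis), with diamonds for 5-month and circles for 18-month cuttings and open symbols for readings not above background. Spruce_20571 is high on the 2 slow 5-month arrays alone (12.33 and 13.24), Spruce_01380 is low there (7.45 and 8.42) but not in genotype 52 at 18 months, and Spruce_29767 is low in genotype 52 at both ages.

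The 10 probes of smallest p with higher slow readings had differences of 2.30 to 5.38 log2 units, and 3 of the 10 were above background on all 4 arrays. Spruce_28253 read 12.32 and 10.84 on slow replicates 1 and 2 and was not above background in genotype 20 (7.83) or 35 (7.46), at least 8.61-fold higher in the slow class (adjusted p = 0.763, limma). Spruce_11820 read 12.10 and 13.16 on the slow arrays and 9.41 and 7.38 in genotypes 20 and 35, and genotype 35 was not above background. Its groups were 2.69 log2 units apart, while genotype 35 minus genotype 20 was -2.03.

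Spruce_00531 read 10.38 and 12.52 on slow replicates 1 and 2, against 8.38 and 7.53 in genotypes 20 and 35. Spruce_27323 followed it closely, at 10.29 and 12.64 against 8.36 and 7.83. These 2 probes differed from each other by at most 0.30 log2 units on the 4 arrays, and correlated at 0.97 over the 19 arrays (Pearson). The pair was singled out after their values were seen. Both were not above background on either fast array, and the bounds were at least 7.79-fold and 7.91-fold. The slow replicates themselves differed by more than 2 log2 units on both.

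Other slow-higher probes were above background on every array. Spruce_08956 read 13.35 and 13.10 on the slow arrays and 10.99 and 10.87 in genotypes 20 and 35, a 4.91-fold higher slow mean (difference 2.30 ± 0.57 log2 units, SE; adjusted p = 0.763, limma). Spruce_04816 read 12.39 and 13.01 against 9.32 and 10.41, a 7.13-fold higher slow mean. Spruce_15721 read 12.74 and 12.17 against 10.44 and 9.84. In Spruce_20349, Spruce_05076 and Spruce_11940, also above background on every array, the lower slow array exceeded the higher fast one by 1.88, 1.87 and 1.82 log2 units. Their slow readings ran from 10.81 to 11.93 and their fast readings from 8.87 to 9.91, and the SD within either class was 0.04 to 0.28. None of these passed the adjusted test.

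A further group of slow-higher probes was not above background in the fast class. Spruce_12375 read 9.80 and 9.82 on the slow arrays, against 7.61 and 6.05 not above background, at least 2.53-fold higher. Spruce_06069 read 10.60 and 9.34 against 7.08 and 7.41, at least 2.83-fold. Spruce_16990 read 8.86 and 11.71 on slow replicates 1 and 2, so its bound of at least 3.52-fold rests mostly on replicate 2. Only the order between the classes can be read from such probes, since readings not above background have no order among themselves.

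**Figure D3:**
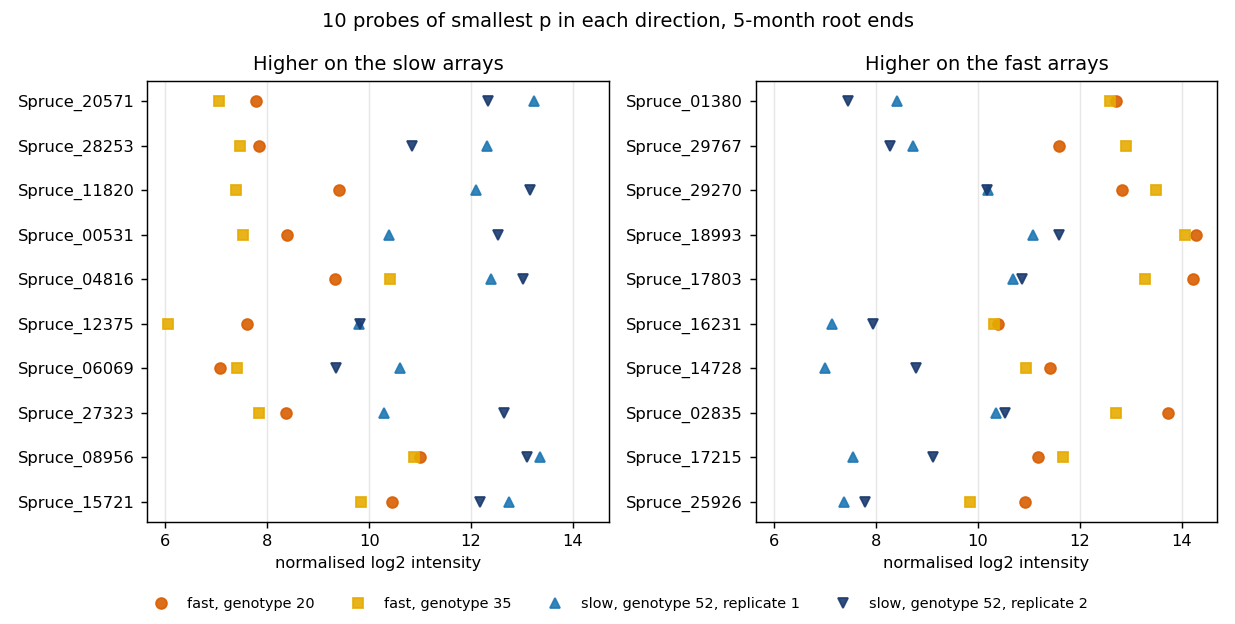
Normalised log2 intensity (horizontal axis) of the 10 probes of smallest p in each direction (vertical axis, by probe), 1 symbol for each of the 4 arrays. Only probes with groups apart, and above background on both arrays of the higher class, were eligible, so both slow arrays lie on one side of both fast arrays by choice. The gaps run from 1.73 to 4.56 log2 units where slow is higher and from 2.06 to 4.18 where fast is higher. None passed the adjusted test.

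The 10 probes of smallest p with higher fast readings had differences of 2.78 to 4.73 log2 units, and 4 of the 10 were above background on all 4 arrays. Spruce_29270 read 12.83 and 13.50 in genotypes 20 and 35 and 10.19 and 10.17 on the slow arrays, a difference of -2.98 ± 0.59 log2 units (SE, adjusted p = 0.763, limma). Spruce_18993 read 14.29 and 14.07 against 11.09 and 11.59, and Spruce_17803 read 14.22 and 13.28 against 10.68 and 10.86. Spruce_02835 read 13.73 and 12.71 against 10.35 and 10.53. In these 4 probes the fast mean was 6.86- to 7.91-fold the slow mean, and the groups were more than 2 log2 units apart in each. Spruce_00083 was of the same kind, at 12.90 and 13.34 against 10.94 and 10.42.

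Both slow arrays missed 4 of the 10. Spruce_14728 read 11.42 and 10.95 in genotypes 20 and 35, against 7.0 and 8.78 not above background, at least 6.71-fold higher in the fast class. Spruce_17215 read 11.17 and 11.67 against 7.54 and 9.11, at least 7.01-fold. Spruce_16231 read 10.39 and 10.31 against 7.14 and 7.93, and Spruce_25926 read 10.92 and 9.85 against 7.38 and 7.78. Spruce_17969, Spruce_01166 and Spruce_13086 were also seen on both fast arrays and on neither slow one, but there genotype 35 minus genotype 20 was -3.50, -1.69 and -1.81 log2 units, so the fast class was itself uneven. Their slow readings, 7.16 to 8.56, were not above background.

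Because each scan period held 1 slow and 1 fast array, the class difference was measured once in each period with no array in common. Slow replicate 2 minus genotype 20 and slow replicate 1 minus genotype 35 had the same sign on 61.9 percent of the 10349 probes, with a Pearson correlation of 0.27 across probes, and on 62.2 percent of the 6439 probes above background on all 4 arrays. With the slow arrays exchanged, so that each pair spans both periods, the same sign was found on 50.3 percent and the correlation was -0.06. In that pairing any difference between scan periods enters the 2 values with opposite signs. It also sets genotype 20 against slow replicate 1, the 2 arrays that saw the most probes. The part of either in the lower agreement was not tested. Both within-period differences exceeded 1 log2 unit upward on 347 probes and downward on 545, and they exceeded 1 log2 unit in opposite directions on 279. Each within-period value rests on 1 array per class and has no test.

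**Figure D4:**
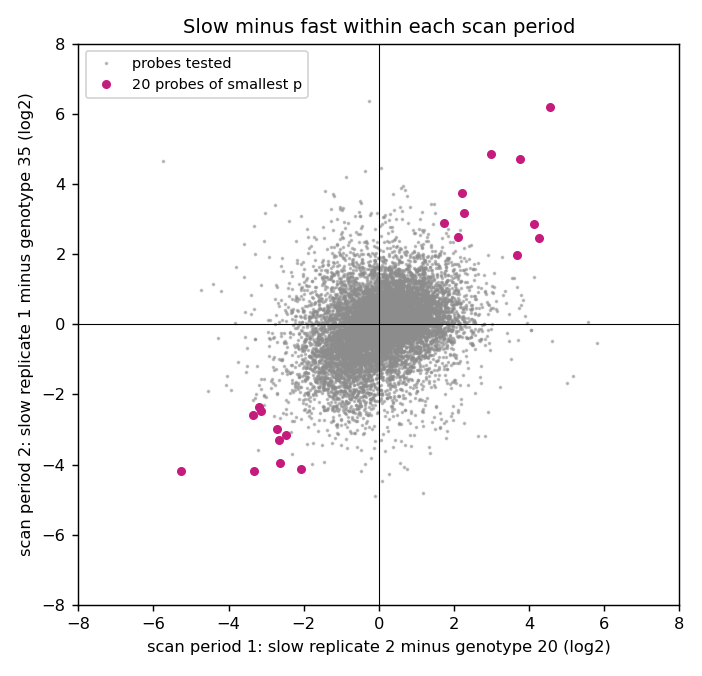
Slow minus fast difference in log2 units within scan period 1 (horizontal axis) and scan period 2 (vertical axis) for 10349 probes (grey) and the 20 probes of smallest p (colour). The cloud leans along the diagonal at a correlation of 0.27, and Spruce_20571 lies at 4.56 and 6.19.

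The fast class held 2 genotypes, and the comparison of genotype pairs asks how they differed from each other beside their differences from genotype 52. With 1 mean for each genotype and age over the 19 arrays, 1 probe passed for 52 against 20, 0 for 52 against 35 and 2 for 35 against 20 (0.0193 percent of the probes tested, limma). Without adjustment, p was below 0.05 for 970, 377 and 475 probes, and for 1888, 731 and 982 with genotype 76 left out of the fit. With scan period as a term, 0 probes passed for 35 against 20, whose arrays lie in different periods. Only 1 array stands behind each fast genotype here, so its spread was borrowed from the other genotypes, and the 3 contrasts share arrays. The median absolute difference was 0.80 log2 units for 52 against 20, 0.49 for 52 against 35 and 0.68 for 35 against 20. Both slow arrays lay between the 2 fast genotypes on 1357 of the 10349 probes, above both on 2025 and below both on 1945. These orders were not tested.

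The 2 probes that passed for the fast pair were outside the naming rule and are named after their values were seen. Spruce_16443 read 6.90 in genotype 20, not above background, 12.87 in genotype 35, and 12.34 and 12.71 on the slow arrays. Genotype 35 minus genotype 20 was 5.97 ± 0.78 log2 units (SE, adjusted p = 0.0275, limma; 0.00648 to 0.184 over the alternatives). It was also the probe that passed for 52 against 20, at 5.63 log2 units (adjusted p = 0.0104, limma). Genotype 20 was not above background at 18 months either, at 6.94 and 6.33, while the other arrays of that age read 11.32 or more. Spruce_02518 read 13.26 in genotype 20, 7.72 in genotype 35, and 11.45 and 12.04 on the slow arrays, and the fast pair differed by -5.54 ± 0.78 log2 units (SE, adjusted p = 0.0287, limma; 0.00648 to 0.184 over the alternatives). In both probes the highest adjusted p came with scan period as a term.

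Among probes above background on every array with genotype 52 in between, genotype 35 minus genotype 20 ran from -5.21 to 3.79 log2 units. Spruce_16843 read 14.94 in genotype 20 and 9.72 in genotype 35, with 10.70 and 10.20 on the slow arrays. Spruce_30953 read 14.91 and 10.27, with 11.84 and 12.91 between them, and Spruce_19859 read 12.41 and 8.67. In the other direction Spruce_30614 read 8.91 in genotype 20 and 12.70 in genotype 35, Spruce_30085 read 8.96 and 12.66, and Spruce_25235 read 10.84 and 14.38. The adjusted p of these 6 lay between 0.566 and 0.964 (limma). A slow minus fast mean hides such probes: for Spruce_30953 it was -0.21 log2 units.

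The 18-month arrays of genotypes 20, 35 and 52, 2 of each, gave the same contrast on 6 other arrays. The sources used here do not say whether their samples came from other plants than the 5-month ones. In this 18-month contrast 0 probes passed (lowest adjusted p 0.0801, limma). Without adjustment 1466 probes had a p below 0.05, 760 higher in genotype 52 (7.34 percent) and 706 lower (6.82 percent). These counts rest on single arrays: without fast 18-month replicate 4, of genotype 20, 772 probes passed and 2867 had such a p. Without replicate 5, also of genotype 20, 8 passed, and without either array of genotype 52 0 passed and 620 or 692 had such a p. The 254 probes with higher slow readings at 5 months had a positive difference at 18 months in 208 cases (81.9 percent), with a median of 0.60 log2 units against 1.75 at 5 months. Of all 5476 probes with a positive 5-month difference, 60.2 percent were positive at 18 months. The 379 probes with higher fast readings had a negative 18-month difference in 262 cases (69.1 percent), with a median of -0.40 against -1.76 log2 units at 5 months. Of all 4873 probes with a negative 5-month difference, 54.0 percent were negative at 18 months. The median 18-month difference over all probes was 0.05.

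**Figure D5:**
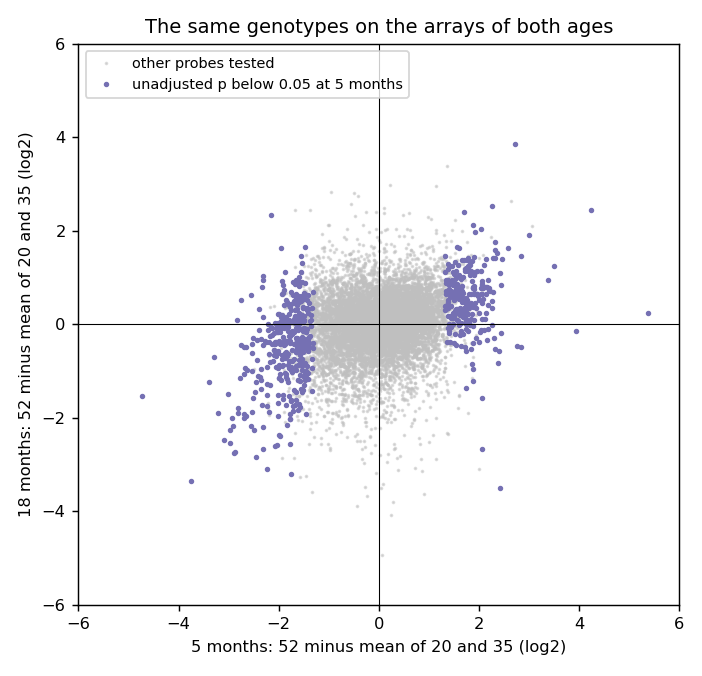
Difference between genotype 52 and the mean of genotypes 20 and 35 in log2 units at 5 months (horizontal axis) and at 18 months (vertical axis) for 10349 probes, with the 633 of unadjusted p below 0.05 at 5 months in colour. Coloured points lie more often on the same side of zero at both ages (81.9 percent on the right, 69.1 percent on the left), at smaller values at 18 months.

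Leading probes differed in whether their 5-month order was also seen at 18 months. Of the 10 leading slow-higher probes 7 had the same sign at 18 months, against 60.2 percent of all probes with a positive 5-month difference. Of these 10, 4 did not overlap there in that direction, against 12.4 percent of all probes and 437 of the 2025 apart upward at 5 months. Of the 10 leading fast-higher probes 9 had the same sign, against 54.0 percent of all probes with a negative 5-month difference. Of these 10, 7 did not overlap in that direction, against 9.57 percent of all probes and 314 of the 1945 apart downward at 5 months. The leading probes were chosen for being apart at 5 months, and these counts were not tested. Spruce_28253, Spruce_08956, Spruce_15721 and Spruce_18993 had the opposite sign at the later age, at -0.15, -0.29, -0.52 and 0.09 log2 units at 18 months. Spruce_08956 alone kept that sign under every 18-month alternative run, at -0.33 to -0.25. Spruce_28253 turned to 0.53 and Spruce_18993 to -0.47 with scan period as a term, and Spruce_15721 turned to 0.06 without slow 18-month replicate 3. No probe of the 10349 passed for the change in the difference between ages (lowest adjusted p 0.999, limma). An unadjusted p below 0.05 was found for 323, fewer than the 517.45 that 5 percent of the probes makes. With genotype 76 left out of the fit the count was 694, more than that number, and again no probe passed. No probe is thus shown to change its slow minus fast difference with age.

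Of the 10349 probes, 437 had genotype 52 above genotypes 20 and 35 at both ages and 314 had it below. On 216 it stood apart at both ages in opposite directions. Taken singly, 19.6 percent of probes were apart upward and 18.8 percent downward at 5 months, and 12.4 and 9.57 percent at 18 months. Whether the counts at both ages go beyond these shares was not tested. By more than 1 log2 unit genotype 52 stood apart at both ages on 3 of the 10349 probes upward and 15 downward. Spruce_06069 was the widest upward, with 18-month readings of 11.13 and 11.73 in genotype 52 and at most 8.88 in the other genotypes of that contrast (difference 3.86 ± 0.55 log2 units, SE; adjusted p = 0.136, limma). Spruce_11820 read 13.09 and 13.84 at 18 months, above the 10.28 to 11.67 of genotypes 20 and 35. Spruce_21980 read 10.70 and 11.65 on the slow arrays at 5 months against 9.30 and 9.63, and 13.16 and 13.23 against at most 11.42 at 18 months. Spruce_00363 was dimmer, at 8.45 and 9.04 at 5 months, with neither fast array above background. At 18 months 1 array of genotype 52, 1 of genotype 20 and none of genotype 35 were above background. The order of this probe there thus rests partly on readings not above background.

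Downward, Spruce_29767 was widest: the higher genotype 52 array minus the lowest other array was -2.87 log2 units at 5 months and -2.89 at 18 months. Spruce_24417 read 8.59 and 9.31 on the slow arrays against 12.11 and 11.19 at 5 months, and 9.88 and 10.01 against 11.58 to 12.24 at 18 months (18-month difference -1.92 ± 0.32 log2 units, SE; adjusted p = 0.153, limma). The same 18-month gap was -1.34 log2 units for Spruce_17215, -1.33 for Spruce_01506 and -1.31 for Spruce_17803. These probes were chosen because they were apart at both ages, so their agreement is a description.

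The remaining genotypes, sampled at 18 months, showed the order of these 3 genotypes for some probes and not for others. For Spruce_06069 the slow genotypes 61, 70 and 76 read 6.72 to 9.33 at 18 months (median 8.48, n = 6, 2 above background), overlapping the 7.48 to 10.56 of fast genotypes 15 and 18 (median 7.50, n = 3). For Spruce_17803 they read 11.58 to 15.22 against 12.60 to 13.38. For Spruce_29270, by contrast, they read 9.51 to 12.35 (median 11.37, n = 6), all below the 12.84 to 13.26 of fast genotypes 15 and 18 (median 13.01, n = 3). Fast genotype 20, however, read 12.24 and 14.16 at 18 months, so 1 of its arrays lay below the highest of those slow readings. The separation from genotypes 15 and 18 was seen among the 20 leading probes and not tested.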

How the data were processed

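The deposited scanner files hold 1-colour intensity values per the file headers: the median pixel intensity of each of 34992 spots, its local background and the background's standard deviation, with no normalisation. Of the spots, 32144 carry a spruce probe and 2848 are controls. A further deposited table covers all arrays in log2 values floored at 0, made by the authors in steps that the sources used here do not state. Its scale was read from the values. Its centring stays unknown. The medians of its columns named for genotype 20, genotype 35 and slow replicates 1 and 2 at 5 months were 2.43, 4.29, 4.47 and 1.67 over the spruce probes, and 0 of its columns lacked a sample. It entered as an alternative only.

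Analysis used R 4.3.3 with limma 3.58.1: normexp with an offset of 50 was run over all spots, control spots were removed, and quantile normalisation on the log2 scale covered 19 arrays. Probes above background on at least 2 of the 4 arrays (10349) were tested and 21795 were left out. A probe seen in 1 class alone could pass this filter through that class, as did 171 of the 633 probes of unadjusted p below 0.05. Each test was two-sided, and p-values were adjusted by Benjamini-Hochberg, with 0.05 as the threshold. Fits were run on simulated data with planted differences as a check of the code, and no result above rests on that check. The members, lists and tests were chosen with earlier results of these data known.

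Named probes were the 10 of smallest p in each direction with groups apart, the 5 of largest bound, the 5 of largest gap with every array above background and below the scanner maximum, the 5 apart at both ages, and the 3 widest fast pairs with genotype 52 between.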

Additional observations from a re-analysis of the deposited data

Results flagged for a closer look

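Spruce_16443 and Spruce_02518 were singled out because genotype 52 differed from genotype 20 otherwise than from genotype 35, by a test of that difference. Genotype 35 minus genotype 20 was 5.97 log2 units for Spruce_16443 (adjusted p = 0.0275, limma) and -5.54 for Spruce_02518 (adjusted p = 0.0287, limma), on 1 array per genotype. The arrays lie in different scan periods, and with scan period as a term neither passed (adjusted p = 0.184 for both, limma). With no background correction neither passed either (adjusted p = 0.0564 for both, limma).

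Control spots gave signal that no comparison used. Spots named GFP1 were above background on 76.6 percent of 342 spots in genotype 20, 2.92 percent in genotype 35, 38.0 percent on slow replicate 1 and 5.56 percent on slow replicate 2. For GFP2 the shares were 76.6, 0.292, 41.5 and 0.292 percent of 342 spots. Spots named GFP alone, and Alien, blank, buffer and empty spots, were above background on 0 percent on each of the 4 arrays. The 2 arrays with high shares, 1 of each class, were also those that saw the most spruce probes, 9803 and 11228. The part of this in the class difference was not tested, and the sources used here do not say what the control spots were hybridised with.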

How the results depend on the processing

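With 4 arrays, 1 slow genotype and scans whose titles the authors' table does not bear out, the counts moved with the design. For slow minus fast, probes past the adjusted threshold numbered 3 on genotype means and 3 with the spread of all 19 arrays, and 0 to 23 when an array was left out: 14 without slow replicate 1, 23 without slow replicate 2 and 0 without either fast array. On genotype means, without either slow array and in the authors' table, limma estimated an infinite prior, so all probes shared 1 spread. The part of this in their counts was not tested. The other alternatives gave 0. At an unadjusted p below 0.05 the 633 probes (254 slow higher, 379 fast higher) became 1864 (828 and 1036) with no filter, 1392 (558 and 834) with scan period as a term, 308 (120 and 188) on genotype means and 25 (2 and 23) in the authors' table. Leaving out an array gave 288 to 1014 (134 to 353 and 154 to 709). Slow-higher probes made up 40.1 percent of the 633, between 39.0 and 46.9 percent under the other background, scaling, filter and fit alternatives, and 30.1 to 53.2 percent with an array left out. The detection sets of 406 and 233 probes stayed within 1.5 times at thresholds of 1 and 3 standard deviations.

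By the authors' values, 20 of the 32 probes named for slow minus fast had the opposite sign. They were Spruce_00531 (-3.85), Spruce_04816 (-2.42), Spruce_27323 (-3.24), Spruce_08956 (-1.25), Spruce_15721 (-0.13), Spruce_16990 (-3.58), Spruce_20349 (-3.62), Spruce_05076 (-1.13), Spruce_11940 (-3.79), Spruce_21980 (-3.30), Spruce_00363 (-1.36), Spruce_18993 (0.17), Spruce_17803 (1.00), Spruce_14728 (0.44), Spruce_02835 (0.54), Spruce_17215 (2.26), Spruce_25926 (1.35), Spruce_01166 (0.26), Spruce_00083 (0.44) and Spruce_01506 (1.88). The share of all tested probes that turn there was not counted, so this count cannot be read as particular to these probes. Columns of the same names correlated with the 4 scans at no more than 0.01. The cause was not tested. The other alternatives turned none of the 32, but for those that leave out or reweight arrays the choice of probes with groups apart fixes the sign.

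For 52 against 20, the adjusted count of 1 became 2 with no background correction or 75th percentile scaling, 0 with all 4 arrays above background and 3 without genotype 76. For 52 against 35, 0 became 2 with that scaling and 4 without genotype 76. For 35 against 20, 2 became 0 with no background correction, with all 4 arrays above background or with scan period, and 1 with that scaling. Spruce_16443 and Spruce_02518, the probes that had passed for these pairs, were each not above background on 1 fast array. The filter of all 4 arrays above background thus left them out before testing, so they could not pass there. Unadjusted counts with all 4 arrays above background, where fewer probes were tested, were 457, 156 and 210, and 191 for the change between ages. Without genotype 76 they were 1888, 731, 982 and 694. At 18 months 8 probes passed with scan period as a term, a fit equal to that without fast 18-month replicate 5. Leaving out 1 array gave 0 to 772 adjusted, the highest without fast 18-month replicate 4 (genotype 20), and 620 to 2867 unadjusted. The same-sign shares of 81.9 and 69.1 percent ran from 79.9 to 85.0 and from 62.0 to 76.8 percent. At 18 months Spruce_28253 turned to 0.53 and Spruce_18993 to -0.47 with scan period. With an array left out Spruce_28253 ranged from -0.83 to 0.53, Spruce_18993 from -0.47 to 0.65, Spruce_15721 from -1.10 to 0.06 and Spruce_14728 from -1.62 to 0.25. No paired analysis was possible because the titles of the 5-month classes share fewer than 2 replicate numbers. Scan period, which pairs 1 slow with 1 fast array, entered as a term above.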

Other observations

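Values centred for each probe over the 19 arrays were used to set each 5-month array against the 18-month arrays of all 8 genotypes. Genotype 35 was most like its own genotype at 18 months (mean Pearson correlation across probes 0.11), and genotype 20 had its own genotype second (0.24, against 0.26 for genotype 35). Slow replicate 1 had its own genotype 7th of 8, at -0.24, and its closest array was Slow_61_1_5 at 0.52. Slow replicate 2 had its own genotype 4th, at -0.04, and its closest array was Slow_70_3_4 at 0.48. Probes are not independent replicates, and scan period and age were not separated here.

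The 10349 probes lie in 48 blocks of the array, with 80 to 300 tested probes in each. The share of probes with an unadjusted p below 0.05 for slow minus fast ran from 1.72 to 20.0 percent between blocks, with a median of 5.76.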
